A study of Mus musculus with 12 samples.

Results

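Circular RNAs (circRNAs) of 2 enzymes of amino acid nitrogen, Aass and Cps1, were followed across 12 livers of mice with toxin-induced fibrosis. A circRNA is a closed loop: the splicing machinery joins a downstream exon end to an upstream exon start, and reads over that back-splice junction reveal it. A junction was counted for a gene when it lay inside the GENCODE M21 gene and had at least 1 end on an exon boundary of it. This gave 17 of the 16445 junctions in the table, 3 from Aass and 14 from Cps1. None of the 17 had a second possible host gene. The 2 genes were picked with the values of their main circles in both treatment groups already known, so the differences between groups below are a description, with no p-value for any Aass or Cps1 junction.

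Every mouse had received carbon tetrachloride (CCl4), a liver toxin that scars rodent liver, by injection 2 times a week for 8 weeks. The dose was 10 µl of a 10% preparation for each 10 g of body weight. The 6 PZH mice were also dosed daily in weeks 2 to 8 with the traditional Chinese medicine Pien Tze Huang (PZH) at 25 mg/ml. The 6 Control mice had the toxin without PZH. The strain is given as C57BL/8, and the livers were collected in week 8. No toxin-free liver was analysed here, and the comparison is between toxin plus PZH and toxin alone.

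AASS is a bifunctional enzyme of mitochondria that starts the main route of lysine breakdown: its N-terminal part joins lysine to 2-oxoglutarate to give saccharopine, and its C-terminal part splits saccharopine. CPS1, carbamoyl phosphate synthetase, takes up free ammonia in liver mitochondria and is the first and rate-limiting enzyme of the urea cycle. The Aass gene (ENSMUSG00000029695.13) lies at chr6:23072173-23132986 on the minus strand and the Cps1 gene (ENSMUSG00000025991.8) at chr1:67123026-67231259 on the plus strand (GRCm38). Both are expressed by hepatocytes, and the CPS1 messenger is among the abundant ones of liver. Only back-splice junctions were measured here, so nothing below gives the level of either messenger or protein.

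The junctions are shown first as they would be read across the back-splice, because the shared ends of the Cps1 circles are visible in the letters. Each line gives the last 15 bases of the last exon in lower case and the first 15 bases of the first exon in capitals, 5′ to 3′ on the strand of the gene, from the GENCODE M21 transcript sequences (GRCm38). These are Aass exons 2 to 11 (chr6:23107140-23122737, minus strand) and, on the plus strand, Cps1 exons 5 to 11 (chr1:67145787-67158941), 5 to 7 (chr1:67145787-67152371), 5 to 6 (chr1:67145787-67148802), 3 to 11 (chr1:67142865-67158941) and 2 to 6 (chr1:67139757-67148802).
Aass exons 2 to 11: tatgttgaagaaatgCTACCACATTTGAAG
Cps1 exons 5 to 11: ccaacagacactgagGTCCCTGCAATTTAT
Cps1 exons 5 to 7: cgcctgctagttaagGTCCCTGCAATTTAT
Cps1 exons 5 to 6: gaggtttcaaccaagGTCCCTGCAATTTAT
Cps1 exons 3 to 11: ccaacagacactgagGTACCCGGAAGCACT
Cps1 exons 2 to 6: gaggtttcaaccaagGCAAAGACAGCACAC
The capitals are the same in the 3 circles that begin at exon 5, and the lower-case letters are the same in the pair that ends at exon 11 and in the pair that ends at exon 6.

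Back-splice signal summed to 92559 to 129699 read-pair equivalents per PZH library and 80442 to 130487 per Control library. A read-pair equivalent is a value divided by the library's step, set so that its smallest value is 2 steps. These sums are no measure of sequencing depth. Summed signal was 31472 to 41080 SRPBM in PZH and 28922 to 40927 SRPBM in Control, SRPBM being the authors' depth-scaled unit of back-spliced reads. Among circRNAs above 0 in all 12 libraries, the log2 values of library pairs had an r of 0.879 to 0.899 within PZH, 0.859 to 0.893 within Control and 0.844 to 0.890 between groups. These correlations run across circRNAs, and circRNAs are no independent replicates. Entries at 0 were common, at 19.0% for circRNAs whose median above 0 was 10 to 20 read-pair equivalents, so a 0 is called "listed at 0" and not absence.

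Aass made in effect a single circle. The circRNA of exons 2 to 11 carried 99.7% of all Aass back-splice signal and was above 0 in all 12 libraries. It lay in the upper part of the table, above 96.3% of the 3870 circRNAs that were above 0 in at least 6 libraries, although 143 circRNAs had a higher mean. In the 6 PZH livers the Aass circle was at 32.3, 52.6, 39.4, 45.7, 30.4 and 73.9 SRPBM. In the 6 Control livers it was at 28.5, 27.6, 29.8, 22.7, 28.0 and 18.6 SRPBM. The lowest PZH library lay just above the highest Control library, and PZH replicate 6 stood highest of all. This narrow separation holds in SRPBM. In read-pair equivalents, which are not scaled for depth, PZH replicate 1 (94.9) lay below Control replicates 3 (95.1) and 5 (96.0). In whole liver, fewer cells of a type and less RNA per cell cannot be told apart.

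The Aass circle averaged 45.7 ± 16.1 SRPBM in PZH and 25.9 ± 4.32 SRPBM in Control (SD, n = 6 each, as for all means below). Fold changes are on the log2(SRPBM + 0.636) scale, where 0.636 is the median over libraries of their lowest value above 0. In limma fitted over the whole table, the log2 fold change of the Aass circle was 0.76 (SE 0.20). That is a 1.69-fold difference, beside a median log2 fold change of 0.06 over all circRNAs tested. Behind these values stood 52.5 to 222 read-pair equivalents per library. Without PZH replicate 6 the log2 fold change was 0.61. Among all 3870 circRNAs tested, 19 (0.491%) had all PZH libraries above all Control libraries, 7 (0.181%) had all below, and 26 (0.672%) did so in either direction. The Aass circle was picked as one of the 19, so nothing is read from this.

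The other Aass junctions were rare. That of exons 10 to 11, which shares its end with the main circle, was at 0.824 SRPBM in Control replicate 2 and listed at 0 elsewhere. That of exons 9 to 10 was at 0.616 SRPBM in PZH replicate 5 and listed at 0 elsewhere. These values stand for 2.29 and 2.00 read-pair equivalents, at the lower limit of the table. Such a strong lead of 1 junction was uncommon: of 224 host genes with a mean summed signal within 1.5 times that of Aass, 10 including Aass had a leading junction with at least this share, the median share was 69.3%, and the median number of junctions was 8.

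The Aass circle is long. If every annotated exon between its ends is kept, it holds 10 exons and 1293 bases, more exons than 99.3% and more bases than 98.6% of the tested circRNAs with both ends in 1 transcript, whose medians were 3 exons and 390 bases. Only the junction was measured, so which exons the circle holds is not known. Its flanking introns, of 10143 bases before exon 2 and 9937 bases after exon 11, are the longest of the transcript but for 1 other. Against all tested circRNAs they were near the middle, as 55.6% had a shorter intron before and 60.8% a shorter intron after.

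Exon 2 of Aass begins 15 bases before the start codon. The circle therefore spans the end of the 5′ untranslated region and the codons for residues 1 to 426 of 926, the N-terminal stretch where the lysine-ketoglutarate reductase part lies. Its length is a multiple of 3, and no stop codon (TAA, TAG or TGA) stood in frame in a full turn from the start codon, on the transcript strand and with all exons kept. Of 497 tested circRNAs that hold their annotated start codon, 59 (11.9%) had this property. It describes the letters and does not show translation.

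**Figure D1:**
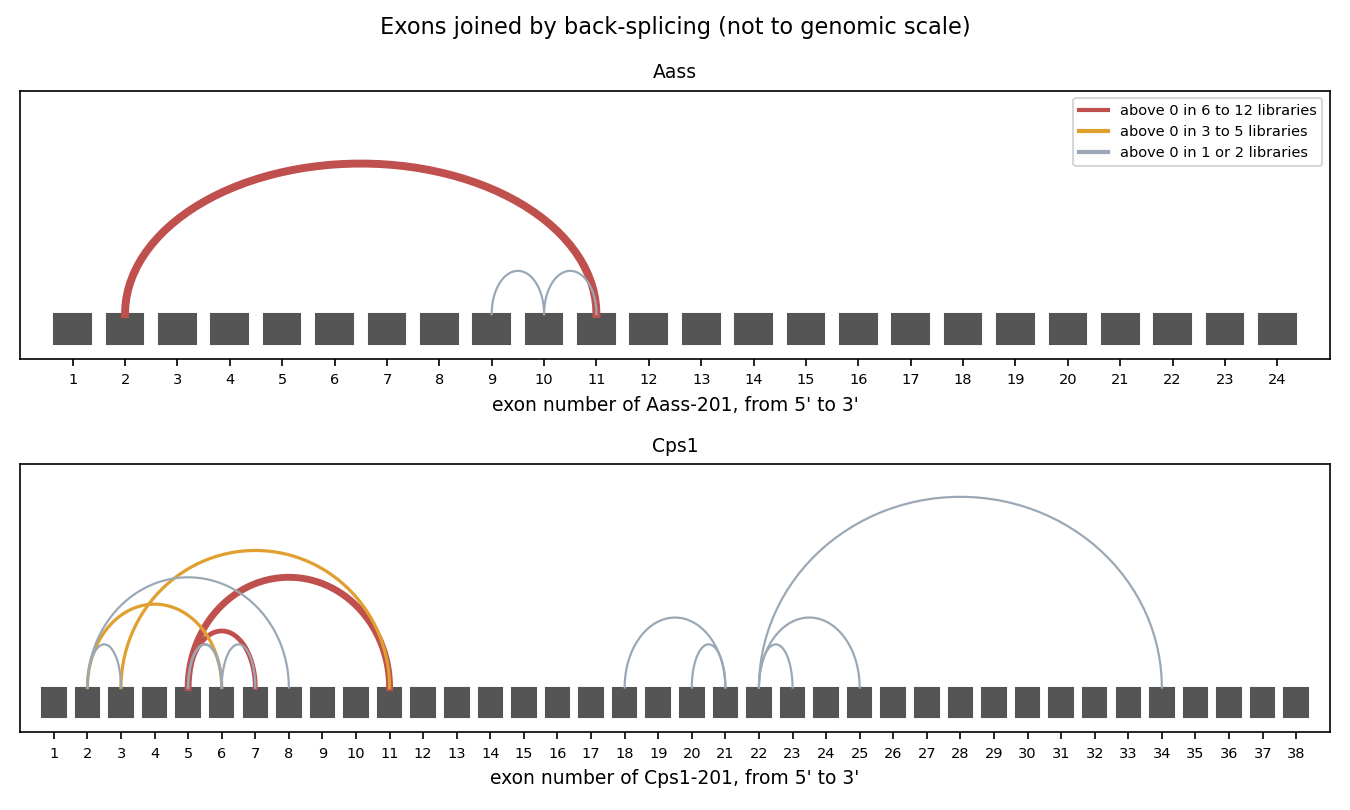
Exons joined by each Aass junction (upper panel) and each Cps1 junction with both ends on exon boundaries (lower panel), against exon number on the x axis (arc height only separates the arcs). Arc width and colour give the number of libraries above 0: Aass has 1 wide arc over exons 2 to 11, and the Cps1 arcs fall into groups up to exon 11, within exons 18 to 21 and within exons 22 to 34.

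Cps1 had 14 junctions, most at low levels, of which 9 were each above 0 in 1 library. The 14 junctions summed to a mean of 7.27 SRPBM over the 12 libraries, against 35.9 SRPBM for Aass, and the Aass circle was above the whole Cps1 sum in 12 of 12 libraries. The signal is read at junctions and is not summed over the length of a gene. Among 519 host genes with a mean sum within 1.5 times that of Cps1, 19 including Cps1 had at least 14 junctions, and the median was 5. The leading junction, of exons 5 to 11, held 58.5% of the Cps1 sum. Its mean was above that of 62.4% of the circRNAs tested, and the mean Cps1 sum was above that of 80.2% of host genes. The median leading share was 39.7% over the 23 host genes with 14 junctions, Cps1 included, and 67.8% over the 519 within 1.5 times its mean sum.

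The Cps1 junctions kept to separate stretches of the gene, which has 38 exons. Up to exon 11 there were 9 junctions, with 92.3% of the Cps1 sum. Within exons 18 to 21 there were 2, with 2.24%, and within exons 22 to 34 there were 3, with 5.44%. No junction spanned the intron after exon 21, which at 14953 bases is the second longest of the gene. All 5 junctions of the downstream stretches abut that intron, either ending at exon 21 or starting at exon 22. Each of these 5 was above 0 in only 1 library. The longest intron, of 16466 bases, lies before exon 2, where 3 further junctions start, with 6.10% of the Cps1 sum. In all, 8 of 13 Cps1 junctions with both ends on boundaries lay next to 1 of the 2 longest introns. Over the table this held for 46.0% of 13467 junctions in transcripts of at least 10 exons. Among the 3211 of them above 0 in at least 6 libraries, it held for 54.2%. The Cps1 circles that pass this filter, of exons 5 to 11 and 5 to 7, lay next to neither of these introns. The difference from the Cps1 junctions was not tested.

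The Cps1 ends were reused. The start of exon 5 was shared by 3 junctions that held 74.98% of the Cps1 sum, and the end of exon 11 by 2 that held 66.9%. Unlike the Aass circle, the leading Cps1 circle of exons 5 to 11 has short flanking introns, of 1831 and 1917 bases, with shorter ones before and after in 14.4% and 15.5% of tested circRNAs. It spans 7 exons and 693 coding bases for residues 158 to 388 of 1500, in the N-terminal part of the enzyme that is related to the glutamine-using subunit of bacterial carbamoyl phosphate synthetase. Of the 13 Cps1 junctions with both ends on boundaries, 7 enclose a multiple of 3 bases. All 7 lie up to exon 11, where that of exons 3 to 11 is the exception, and none of the 5 downstream junctions does.

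Across the 6 PZH livers, the circle of Cps1 exons 5 to 11 measured 6.34, 0, 1.66, 4.26, 2.46 and 0 SRPBM. In the 6 Control livers it was at 6.44, 7.62, 6.09, 2.79, 5.74 and 7.60 SRPBM. The groups overlapped: PZH replicate 1 was above 3 of the 6 Control livers, and Control replicate 4 was within the PZH range. PZH replicates 2 and 6, where it was listed at 0, had the highest summed back-splice signal of the PZH libraries in read-pair equivalents. That sum does not give sequencing depth. Their smallest values above 0 were 0.610 and 0.666 SRPBM, within a range of 0.610 to 0.680 SRPBM over the PZH libraries. Over the libraries above 0 it had 5.17 to 21.5 read-pair equivalents, with a median of 19.0.

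For the Cps1 circle of exons 5 to 11, limma gave a log2 fold change of -1.58 (SE 0.61). The size depends on how entries at 0 are handled: with zeros treated as missing it was -0.83, and with 4 times the pseudocount -0.90. It was listed above 0 for 4 of the PZH and 6 of the Control livers. A gap of at least 2 libraries in that direction was seen for 11.9% of the circRNAs tested, and the opposite for 14.0%.

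The exon 5 to 7 circle, the second of Cps1, reached 2.26 and 1.66 SRPBM in PZH replicates 3 and 6 and was listed at 0 in the other PZH libraries. In Control it was at 1.87, 1.13, 0.996 and 2.01 SRPBM in replicates 1, 2, 4 and 6 and listed at 0 in replicates 3 and 5. The ranges overlap. Its log2 fold change was -0.47 (SE 0.57), within its error, and 0.44 with zeros treated as missing. The circle of exons 5 to 11 was above that of exons 5 to 7 in 3 of 6 PZH libraries and in 6 of 6 Control libraries. In PZH replicates 3 and 6 the exon 5 to 7 circle was the higher one, and in PZH replicate 2 both were listed at 0. The mean log2 difference over the 12 libraries was 1.64 (SD 1.68), given with no test, since the pair was ordered by these levels.

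Of the remaining 12 Cps1 junctions, 2 were above 0 in 3 libraries. The junction joining exons 2 to 6 reached 0.964 and 0.931 SRPBM in PZH replicates 3 and 4 and 1.60 SRPBM in Control replicate 4. The one joining exons 3 to 11 reached 0.644 and 1.68 SRPBM in PZH replicates 3 and 4 and 5.01 SRPBM in Control replicate 1. The exon 5 to 6 circle was listed at 0 in all PZH libraries and reached 1.08 and 3.38 SRPBM in Control replicates 4 and 5. The other 9 were above 0 in 1 library each, 3 of them in a PZH and 6 in a Control library, at 0.585 to 1.92 SRPBM. They joined exons 2 to 3, 2 to 8, 6 to 7, 18 to 21, 20 to 21, 22 to 23, 22 to 25 and 22 to 34, and exon 3 to a point inside exon 9. The last, at 0.926 SRPBM in PZH replicate 5, has 1 end on a boundary and its other end 67 bases before one. A further junction inside Cps1, at 0.931 SRPBM in PZH replicate 4, lay 55 and 28 bases off the nearest boundaries and was not counted.

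**Figure D2:**
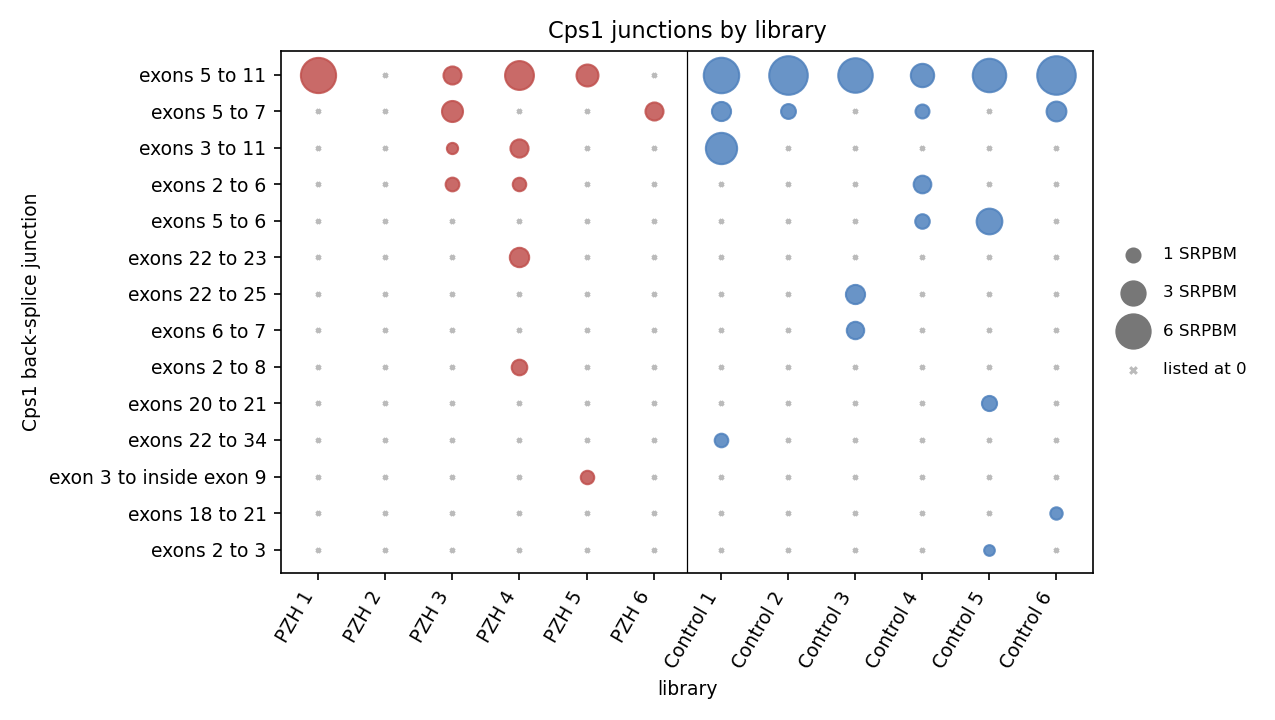
Signal of each of the 14 Cps1 junctions (rows) in each library (columns, PZH left of the line, Control right of it). Circle area is proportional to SRPBM and a cross marks an entry listed at 0: 13 entries were above 0 in PZH and 20 in Control, and PZH replicate 2 had none.

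Summed over its junctions, Cps1 was at 6.34, 0, 5.53, 10.0, 3.39 and 1.66 SRPBM in PZH. In Control it was at 14.3, 8.75, 9.52, 6.46, 10.9 and 10.4 SRPBM. Control replicate 4 was the lowest Control liver and lay below PZH replicate 4, the highest PZH liver. The log2 fold change of the sum was -1.48 (SE 0.58), and -0.97 without PZH replicate 2. That of the Aass sum was 0.75 (SE 0.21), with sums of 31.0 to 73.9 SRPBM in PZH and 18.6 to 29.8 SRPBM in Control. PZH livers showed 7 distinct Cps1 junctions and Control livers 11. Of these, 3 in PZH and 6 in Control were above 0 in 1 library only, at 0.585 to 1.92 SRPBM. The counts are therefore not read as a difference between the groups.

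**Figure D3:**
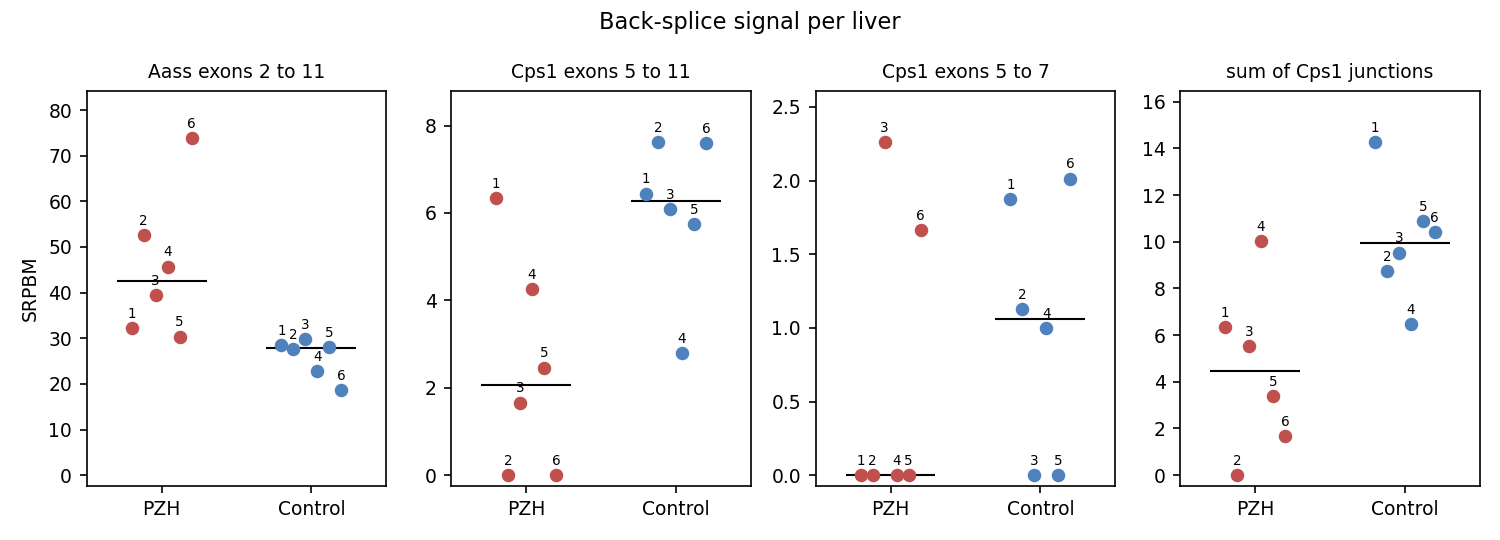
Back-splice signal in SRPBM (y axes, each on its own scale) per liver for the Aass circle, the 2 leading Cps1 circles and the Cps1 sum, with PZH left and Control right. Points are single libraries numbered by replicate and lines are group medians: the Aass groups do not overlap (30.4 to 73.9 in PZH and 18.6 to 29.8 in Control), while the Cps1 groups do.

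Of the 17 junctions, 3 were above 0 in at least 6 libraries and could be tested, and 0 of these 3 passed an adjusted p of 0.05 in limma with Benjamini-Hochberg adjustment over all 3870 circRNAs. Of all circRNAs tested, 2 passed (0.0517%), both higher in PZH. Other settings also called lower ones, among them 11 of 30 with no filter on low values and 2 of 4 with 4 times the pseudocount. At an unadjusted p under 0.05 in limma, 176 circRNAs were on the higher side in PZH and 116 on the lower side. A log2 fold change above that of the Aass circle was seen for 13.0% of the circRNAs tested, and one below that of Cps1 exons 5 to 11 for 1.14%. As the genes were picked on this contrast, these places are not evidence about them.

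**Figure D4:**
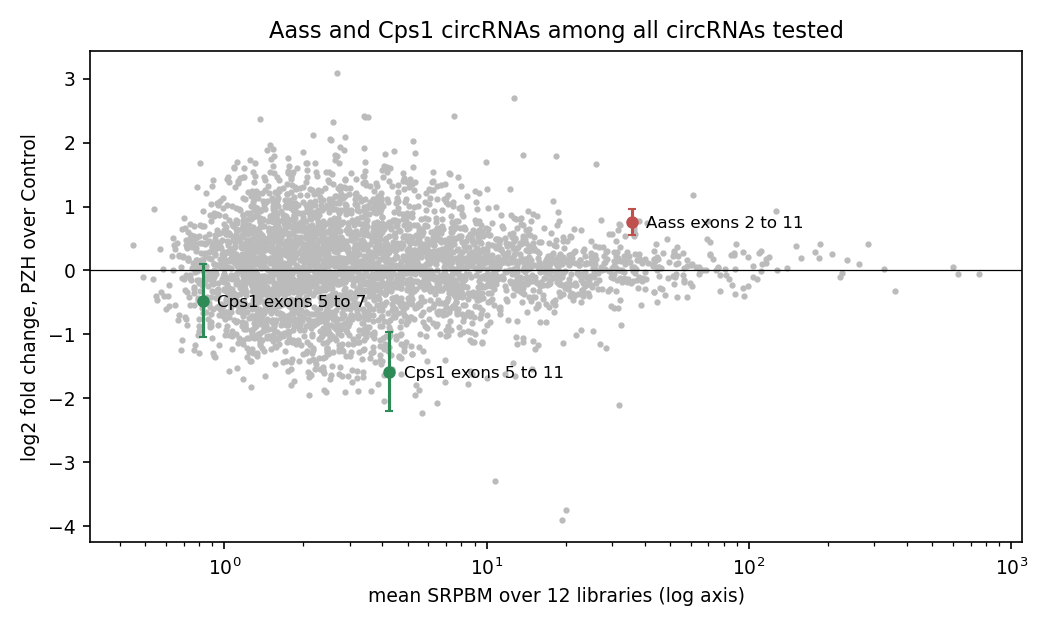
Log2 fold change of PZH over Control (y axis) against mean SRPBM over 12 libraries (x axis, log scale) for the 3870 circRNAs tested (grey), with the Aass circle in red and the Cps1 circles in green. Bars are 1 SE: the Aass circle stands at 0.76, Cps1 exons 5 to 11 at -1.58 and Cps1 exons 5 to 7 at -0.47.

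Circles of other urea cycle genes were few. Of 7 such genes, 4 had junctions and 3 had tested circRNAs, namely Asl (argininosuccinate lyase), Ass1 (argininosuccinate synthase) and Slc25a13, a mitochondrial aspartate carrier. Of their 4 tested circRNAs, 0 passed as higher and 0 as lower in limma. Over all 3870 circRNAs tested, 2 passed (0.0517%). A count of 0 in so small a list is therefore not read as a result about it. Positive values were found for 2 and negative ones for 2. The median log2 fold change was 0.17, against 0.06 over all circRNAs tested, of which 54.3% had a positive value. Asl exons 5 to 9 averaged 28.7 ± 4.70 SRPBM in PZH and 31.3 ± 9.46 SRPBM in Control (SD, n = 6 each), with a difference on the log2 scale of -0.08 (SE 0.20, limma adjusted p = 0.955). Asl exons 12 to 15 was at 0 to 7.81 SRPBM in PZH and 0 to 10.5 SRPBM in Control. Ass1 exons 10 to 12 was at 1.92 to 2.97 SRPBM in PZH and 0 to 2.90 SRPBM in Control.

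Among 18 further genes of lysine breakdown and transport, 9 had junctions and 4 had tested circRNAs. Of 8 tested circRNAs, 0 passed in either direction in limma, beside 0.0517% over all circRNAs tested. The list is too small at that share for the 0 to be read as a result. Values were positive for 5 and negative for 3, and the median log2 fold change was 0.17. The most abundant came from Acat1, which encodes the mitochondrial acetoacetyl-CoA thiolase. Its exon 4 to 5 circle had a mean of 17.7 ± 1.91 SRPBM in PZH, against 25.1 ± 4.99 SRPBM in Control, with a difference on the log2 scale of -0.47 (SE 0.20, limma adjusted p = 0.578). That of Dhtkd1, a subunit of the 2-oxoadipate dehydrogenase of the lysine route, averaged 7.90 ± 2.90 SRPBM in PZH and 5.73 ± 2.66 SRPBM in Control (exons 2 to 5, limma adjusted p = 0.805). A Dlst circle of exons 8 to 10 was at 2.09 to 7.13 SRPBM in PZH and 0 to 8.14 SRPBM in Control.

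Of 70 genes of other amino acid routes, 34 had junctions and 17 had tested circRNAs. Of these 36 circRNAs, 0 passed in either direction in limma, beside 0.0517% over all circRNAs tested. This 0 is likewise not read as a result about the list. Values were positive for 25 and negative for 11, with a median log2 fold change of 0.25. The 3 most abundant came from Bckdhb, which encodes part of the dehydrogenase of branched-chain keto acids, and Cth, cystathionine gamma-lyase. Bckdhb exons 2 to 6 averaged 101.5 ± 19.2 SRPBM in PZH and 77.2 ± 20.6 SRPBM in Control. Bckdhb exons 4 to 8 averaged 80.6 ± 12.1 SRPBM in PZH, against 58.3 ± 15.3 SRPBM in Control, with a limma adjusted p of 0.454. Cth exons 2 to 4 averaged 63.8 ± 20.7 SRPBM in PZH and 65.5 ± 13.7 SRPBM in Control.

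Among 943 host genes whose sums were above 0 in all 12 libraries, those most like the Aass sum by Spearman correlation over the 12 libraries were Fmo5 (0.90), Rere (0.89), Wdr91 (0.89), Akr1c20 (0.87) and Gramd1c (0.86). All 5 also had higher means in PZH, so the correlation over 12 libraries holds the difference between groups. Within the 6 PZH libraries it was 0.60, 0.66, 0.49, 0.14 and 0.77 in that order, and within the 6 Control libraries 0.60, 0.83, 0.60, 0.83 and 0.09. Those most like the Cps1 sum were Zfp568 (0.90), Chchd3 (0.76), Phf12 (0.74), Acbd6 (0.72) and Hdgfl3 (0.69), all with lower means in PZH. The Zfp568 sum averaged 8.76 ± 2.30 SRPBM in PZH and 15.6 ± 2.81 SRPBM in Control, and its correlation with Cps1 was 0.77 within PZH and 0.83 within Control. For Chchd3, Phf12, Acbd6 and Hdgfl3, in that order, the correlation was 0.37, 0.26, 0.37 and 0.31 within PZH and 0.83, 0.71, 0.03 and 0.49 within Control. By Pearson correlation of log2 values, 3 of the 5 genes for Aass and 2 of the 5 for Cps1 were again among the top 5.

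Signal from circles of cell type marker genes overlapped between the groups for 4 of 5 lists. Hepatocyte markers, of which 10 of 14 had junctions and Ttr, Apoa1, Serpina1c and Apoh had none, summed to 7.13 to 30.1 SRPBM in PZH and 5.07 to 22.9 SRPBM in Control. Markers of stellate cells, the scar-forming cells of liver, had junctions for 4 of 12 genes (Reln, Hgf, Dlc1 and Zeb2), and Lrat, Des, Pdgfrb, Acta2, Ecm1 and the 3 collagen genes had none. Their sums were 10.1 to 21.99 SRPBM in PZH and 1.78 to 9.60 SRPBM in Control, without overlap. Among single circRNAs, 26 of 3870 (0.672%) had groups without overlap, and no such share was computed for summed lists. The stellate sum rests on these 4 genes, and the list was chosen with earlier results of these data known. No statement about cell numbers is drawn from it. Macrophage and immune markers (4 of 9 genes) summed to 40.6 to 65.7 SRPBM in PZH and 34.04 to 56.6 SRPBM in Control. Endothelial markers (4 of 8) summed to 1.70 to 12.4 SRPBM in PZH and 0 to 11.2 SRPBM in Control. Cholangiocyte markers (2 of 8) summed to at most 1.78 SRPBM in PZH and 1.80 SRPBM in Control. The part of these cell types in the Aass and Cps1 values was not tested.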

How the data were processed

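The deposited table gives, per junction and liver, a signal in SRPBM computed by the authors; no formula, circRNA caller or filter is given in the sources used here. Per the submitters' processing notes, Trim Galore and STAR were used with GRCm38 (mm10). Per the labels' protocols, Trizol RNA went into TruSeq libraries of single livers. Whole reads were not recovered, since of values up to 8.5 steps only 56.8% to 63.8% were whole (at most 0.05 below or 0.1 above a step), so no count model was used.

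Hosts came from GENCODE M21, and both ends of 15737 of 16445 junctions matched exon boundaries of the host. Exon numbers follow 1 transcript each for Aass and Cps1 and, for other genes, a transcript holding both ends, chosen for each junction. Host sums used junctions with at least 1 end on a boundary. limma 3.58.1 (R 4.3.3, variance trend) was fitted to log2(SRPBM + 0.636) of circRNAs above 0 in at least 6 of 12 libraries. Other values were computed in Python 3.11.15. The fold changes of low circRNAs can be too small or too large, as they depend on the pseudocount and on entries at 0. For Cps1 exons 5 to 11 the log2 fold change was -1.58 in the main fit and -0.90 with 4 times the pseudocount. With zeros treated as missing it was -0.83, and that of Cps1 exons 5 to 7 went from -0.47 to 0.44.

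The genes, gene lists and marker lists were chosen with earlier results of these data known. Named were all Aass and Cps1 junctions above 0 in at least 3 libraries, the 3 most abundant circRNAs per pathway list and the 5 host genes most like each sum; rarer junctions were named after their values were seen. Alternatives were other pseudocounts, filters, scalings, no variance trend, a replicate block, sums over junctions with both ends on boundaries, leaving out each library and, chosen after seeing the data, zeros treated as missing.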

Additional observations from a re-analysis of the deposited data

Results flagged for a closer look

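In 4 of 18 groups of 6 values, the farthest library stood apart by more than Dixon's critical value (about 5% of groups would by chance). All 4 are groups in which the other 5 libraries share 1 value, where any single deviating library is set apart. Cps1 exons 3 to 11 was at 5.01 SRPBM in Control replicate 1 and listed at 0 in the other Control libraries. Cps1 exons 2 to 6 was at 1.60 SRPBM in Control replicate 4 and listed at 0 in the others. The number of Aass junctions above 0 was 2 in PZH replicate 5 and 2 in Control replicate 2, and 1 in every other library.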

How the results depend on the processing

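The log2 fold change of the Aass sum was 0.71 to 0.77 over 11 other settings and 0.61 to 0.85 when leaving out each library, and that of the Cps1 sum was -1.69 to -0.99 over 10 settings and -1.78 to -0.97 when leaving out each library. The log2 fold change of Cps1 exons 5 to 7 turned to 0.44 with zeros treated as missing. The count of Aass and Cps1 circRNAs called was 1, the Aass circle, when only circRNAs above 0 in all libraries were tested (fewer circRNAs tested) and 1 with zeros treated as missing. In these settings 10 of 1089 (0.918%) and 11 of 3813 (0.288%) circRNAs were called in all. As Aass was picked on this contrast, neither call is evidence about it. The count was 0 in the other settings. Over the table, 2 circRNAs were called, both higher in PZH, against 4 (2 higher) with 4 times the pseudocount, 30 (19 higher) with no filter on low values, 10 (8 higher) among circRNAs above 0 in all libraries, 11 (7 higher) with zeros treated as missing and 1 (higher) with a replicate block. When leaving out each library it was 1 to 3, with 1 without PZH replicates 2, 4 or 6 or Control replicates 2, 3, 4, 5 or 6. It was 3 (1 higher) without PZH replicate 5, and 2 (1 higher) without PZH replicates 1 or 3 or Control replicate 1. The cause was not tested. Pathway circRNAs called were 0, against 2 with no filter, 1 among circRNAs above 0 in all libraries and 1 with zeros treated as missing. Over the table the shares called in these settings were 0.182%, 0.918% and 0.288%. With no filter the 3 lists held 12, 30 and 151 junctions. The directions of these calls, and the list sizes in the other settings, are not given, so the calls are not read as a result about the lists. The replicate numbers only name samples: the deviations of same-numbered libraries correlated with r of -0.12 to 0.03, and 0 of 6 PZH libraries correlated best with their own number. Apart from the circle of exons 5 to 11, most Cps1 circles lie close to the lowest values listed, which limits what can be said of them. The circle of exons 5 to 11 had a higher mean than 62.4% of the circRNAs tested, but was listed at 0 in PZH replicates 2 and 6.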

Other observations

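The 2 livers with the highest Aass circle had the 2 lowest Cps1 sums. PZH replicates 6 and 2 had 73.9 and 52.6 SRPBM for Aass exons 2 to 11, and 1.66 and 0 SRPBM for the sum of the Cps1 junctions. PZH replicate 4, next for Aass at 45.7 SRPBM, had the highest Cps1 sum of the PZH livers, at 10.0 SRPBM. Over the 12 libraries the Spearman correlation of the Aass and Cps1 sums was -0.66, which put Aass at rank 918 of 944 host genes compared with Cps1. Within the 6 PZH libraries it was -0.43 and within the 6 Control libraries 0.20, so the relation over 12 libraries includes the difference between the groups. These genes were picked for opposite differences, and the values are given as a description.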
